A study of Mus musculus with 6 samples.

Results

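Valine is carried to the ribosome by tRNAs with 3 anticodons, the isoacceptors Val-AAC, Val-CAC and Val-TAC, and the fragments cut from these tRNAs in mouse brain are described here by isoacceptor. The deposited table gives tag counts (sequenced reads assigned to a fragment) for 591 tRNA-derived small RNAs (tDRs), each with its own ID and a list of the tRNAs that contain it. An ID was taken as a valine fragment where every parent tRNA was a valine tRNA and at least 1 parent was a mature tRNA. This gave 43 of the 591 IDs, of which 9 name Val-AAC parents only, 7 Val-CAC only, 8 Val-TAC only, and 19 are shared between Val-AAC and Val-CAC. No ID was shared between Val-TAC and another valine isoacceptor. Precursor names count in this grouping. AS-tDR-007910, with Val-AAC-5-1 as its only mature parent, is shared through the precursor of Val-CAC-1-1. The rule leaves out 10 IDs listed under valine precursors only and 5 that also name a glycine tRNA.

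The libraries are small RNA of whole brain from C57BL/6 mice, a common inbred strain, at 3 months of age (n = 3) and at 22 months (n = 3). No treatment is named, and no genotype apart from WT in some column headings. The columns are headed WT and Age with the numbers 1 to 3, which were read as replicates 1 to 3 at 3 and at 22 months. Nothing in the labels ties a replicate to its own animal, and p-values therefore reflect only the variation among these libraries, which may be technical. The tissue was not checked against marker genes, since the table lists tRNA fragments.

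A tRNA is a short RNA folded into an acceptor stem, a D arm, an anticodon arm and a T arm, and its anticodon reads the codon in the mRNA. Nucleases such as angiogenin cut mature tRNAs in or near the anticodon loop, which leaves a 5′ and a 3′ piece, and other cuts give shorter fragments from either end. Such fragments accumulate under stress, and some have been linked to the control of translation.

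The sequences of the parents decide which isoacceptor a fragment can be assigned to, and the main ones are printed here as the table gives them, 5′ to 3′ with the added CCA end. Position 1 is the first base, capitals mark the anticodon (positions 34 to 36) and every base that differs from Val-CAC-2-1, and T stands for U.
Val-CAC-2-1: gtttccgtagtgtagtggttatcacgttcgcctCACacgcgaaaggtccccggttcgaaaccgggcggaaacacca
Val-AAC-1-1: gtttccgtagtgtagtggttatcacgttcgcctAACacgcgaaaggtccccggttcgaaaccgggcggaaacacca
Val-AAC-5-1: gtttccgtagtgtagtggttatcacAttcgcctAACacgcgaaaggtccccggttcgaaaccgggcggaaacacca
Val-CAC-1-1: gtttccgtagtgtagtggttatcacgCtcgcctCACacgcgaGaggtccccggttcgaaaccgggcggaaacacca
Val-AAC-2-1: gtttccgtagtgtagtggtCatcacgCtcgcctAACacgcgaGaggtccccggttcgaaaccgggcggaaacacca
Val-AAC-3-1: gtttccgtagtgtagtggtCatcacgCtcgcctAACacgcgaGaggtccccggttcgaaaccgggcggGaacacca
Val-CAC-3-1: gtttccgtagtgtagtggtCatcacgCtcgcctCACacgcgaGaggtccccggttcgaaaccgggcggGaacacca
Val-AAC-4-1: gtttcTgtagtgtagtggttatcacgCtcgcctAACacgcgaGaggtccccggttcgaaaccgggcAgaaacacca
Val-TAC-1-1: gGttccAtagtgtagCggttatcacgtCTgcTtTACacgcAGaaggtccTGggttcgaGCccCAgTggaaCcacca

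Val-AAC-1-1 differs from Val-CAC-2-1 by C34A alone, so a fragment that does not cover position 34 cannot tell these 2 tRNAs apart. The 19 valine tRNA names in the table stand for 11 distinct sequences of 76 nt, and Val-CAC-2-1 to Val-CAC-2-5 are identical. Val-TAC-1-1, identical to Val-TAC-1-2 and Val-TAC-1-3, differs from Val-CAC-2-1 at 17 positions, and all 8 Val-TAC IDs name these 3 tRNAs. Val-AAC-2-1, Val-AAC-2-2, Val-AAC-3-1 and Val-CAC-3-1 are the 4 names with T20C, a change in the D arm, against Val-CAC-2-1. RefSeq lists 22 valine tRNA genes on GRCm38, the assembly also called mm10: 8 of Val-AAC, 11 of Val-CAC and 3 of Val-TAC, with 10 of the 22 on chromosome 13. The 3 Val-TAC genes lie at chr19:12011931-12012003, chr19:12012266-12012338 and chrX:160766110-160766182. RefSeq's symbols are not paired with the tRNA names of the table, so a fragment was not placed at 1 gene.

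The table gives the sequence of each parent and not of the fragment, but the list of parents limits where a fragment can lie. For each ID, windows of 15 to 50 nt were kept that match all of its mature parents exactly and none of the other mature tRNAs named in the table. For 12 IDs, all of them shared, every such window ends before position 34, on the 5′ side of the anticodon. For 5 IDs, all listed under mature Val-AAC-3-1 and Val-CAC-3-1, every window starts after position 34 and contains positions 62 to 69, on the 3′ side. All 5 also name the precursor of Val-AAC-2-1, although mature Val-AAC-2-1 lacks A69G, a base in these windows. Precursor names were not used for the windows, and this mismatch was not resolved. For 4 IDs, 3 of Val-CAC-2 and 1 of Val-AAC-1, every window covers position 34. The windows of 19 IDs leave the side undetermined, and 3 IDs have no such window, so their parent lists do not follow from exact matches. These placements are limits from the parent lists, not observed ends. All but 1 of the 43 IDs, AS-tDR-006209 of Val-TAC, also name a valine precursor tRNA. IDs of 1 parent can overlap in sequence and are not independent, and how reads that fit several near-identical tRNAs were divided is not stated.

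Listed tags summed to between 44156 and 57425 per library at 3 months and between 71121 and 96130 at 22 months. Levels below are in CPM, tags rescaled to a common library total after TMM scaling, a correction that sets the bulk of IDs level between libraries. Since 1 tag is 1 sequenced fragment, levels are not divided by length. No library has a value between 0 and a minimum of 171 to 233 CPM on this scale, and a 0 is therefore read as below that minimum. Replicate 3 at 22 months stood apart: over the 591 IDs its Spearman correlations with the other two of its age were 0.749 and 0.824, against 0.908 between those, and between 0.577 and 0.702 with the 3 month libraries. Several values below are therefore also given without it. Levels are relative to the other listed fragments of whole brain, so fewer cells of a type and less RNA per cell cannot be told apart.

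Fragments shared between Val-AAC and Val-CAC made up most of the valine signal in 5 of 6 libraries, all but replicate 3 at 22 months, and Val-TAC fragments were scarce at both ages. The summed shared level was 37652, 31891 and 33267 CPM in replicates 1, 2 and 3 at 3 months and 25929, 27342 and 21948 CPM at 22 months. All 3 libraries at 22 months lay below all 3 at 3 months. Mean levels were 34270 ± 3009 CPM and 25073 ± 2797 CPM (SD, n = 3 each). The log2 difference, -0.45 (SE 0.17), did not pass the threshold of 0.05 (edgeR quasi-likelihood test, adjusted p = 0.113). The difference was -0.30 without replicate 3 at 22 months. DESeq2, an alternative test that called 31.2% of all 77 parent classes, gave -0.44 and an adjusted p of 0.0036.

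The Val-AAC sum was 10207, 7924 and 3667 CPM at 3 months and 3822, 7025 and 25492 CPM at 22 months. The ages overlapped, and replicate 3 at 22 months was the highest of the 6 libraries. The log2 difference was 0.74 (SE 0.73; edgeR adjusted p = 0.495) with that library and -0.35 (adjusted p = 0.676) without it. The Val-CAC sum was 3554, 3148 and 1905 CPM at 3 months and 2919, 5172 and 11959 CPM at 22 months. Again replicate 3 at 22 months was the highest, and replicate 1 lay within the 3 month range. The log2 difference was 1.22 (SE 0.53, edgeR adjusted p = 0.17), and 0.57 without replicate 3 at 22 months. Without replicate 1 at 22 months it was 1.68 and passed (edgeR adjusted p = 0.0348). In that fit 19 of 80 parent classes passed, against 10 of 77 with all libraries.

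The Val-TAC sum, which held between 35 and 160 tags in a library, was 1746, 2827 and 2233 CPM at 3 months and 916, 1925 and 479 CPM at 22 months. Replicate 2 at 22 months lay above replicate 1 at 3 months, so the ages overlapped on this scale. The log2 difference was -1.03 (SE 0.51; edgeR adjusted p = 0.212), -0.59 without replicate 3 at 22 months and -1.69 without replicate 2 at 22 months. Of the 4 valine sums 0 passed, and 1, the shared sum, had an unadjusted p under 0.05. Of all 77 parent classes in the data, 13.0% passed by edgeR.

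**Figure D1:**
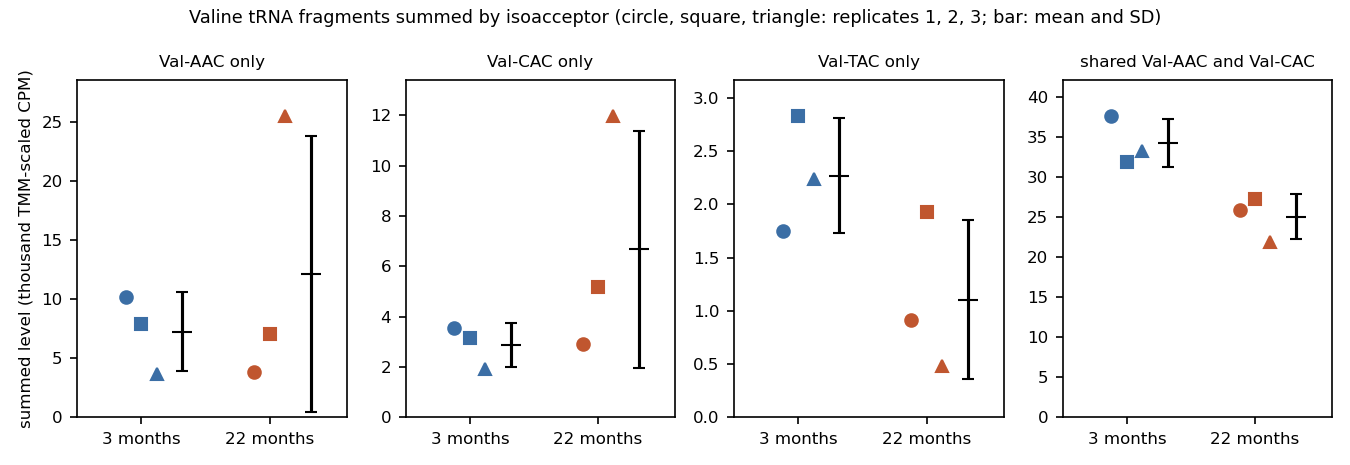
Summed level of valine tRNA fragments (TMM-scaled CPM, ticks in kCPM, linear axis from 0 in each panel, scales differ) by parent isoacceptor and age; points are libraries, with symbols for replicates 1 to 3, and bars show the mean and SD of 3. The shared sum lies at 31891 to 37652 CPM at 3 months and at 21948 to 27342 CPM at 22 months without overlap, and replicate 3 at 22 months is the highest for Val-AAC (25492 CPM) and Val-CAC (11959 CPM).

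As a share of all listed tags, which needs no scaling between libraries, the shared fragments took 4.17%, 3.30% and 3.68% at 3 months and 2.75%, 2.36% and 1.89% at 22 months. Val-TAC took 0.193%, 0.292% and 0.247% at 3 months and 0.097%, 0.166% and 0.0413% at 22 months. Both shares were below the lowest 3 month value in each 22 month library, for Val-TAC on this scale but not on the scaled one. Values listed at 0 counted as 0 in all sums and shares. Of the 8 Val-TAC IDs, 5, 3 and 4 were at 0 in replicates 1, 2 and 3 at 3 months and 6, 5 and 7 at 22 months. Whether unlisted tags would close the gap for Val-TAC was not tested. The exact two-sided permutation test gave p = 0.1 for each, the smallest that 3 against 3 libraries allow, and 0.25 after Benjamini-Hochberg adjustment over 5 shares. The Val-AAC share was 0.785% ± 0.364 in young and 1.07% ± 0.981 in old brain (SD, n = 3 each; exact permutation p = 0.9), and its mean was lower at 22 months by 0.279 percentage points when replicate 3 at 22 months was left out. The Val-CAC share was 0.31% ± 0.0925 and 0.596% ± 0.383 (exact permutation p = 0.3), a difference of 0.286 points, or 0.0684 points without that library. All 43 valine IDs together took 5.06% ± 0.727 and 4.1% ± 0.917 (exact permutation p = 0.3), a difference of -0.953 points. It was -1.48 points without that library, -1.59 points (exact permutation p = 0.1) when the most abundant ID in the data was taken out of the total, and -1.09 points (exact permutation p = 0.1) over IDs above 0 in all 6 libraries. The 95% Wilson intervals of these shares reach at most 0.196 points to either side for all valine and 0.05 points for Val-TAC, and they cover counting error only, since the labels name no molecular identifiers.

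Whether the 4 groups moved differently with age was tested on the log2 ratio of 2 sums within a library, for all 6 pairs. The shared group holds fragments of both Val-AAC and Val-CAC, so not every pair is between isoacceptors. Much of the Val-CAC sum came from the 3 Val-CAC-2 IDs whose windows cover position 34. Their mean was 1385 of 2869 CPM at 3 months and 6301 of 6684 CPM at 22 months. Val-CAC-2 is also a parent of shared IDs on the 5′ side. The ratio of Val-CAC to shared fragments therefore partly sets positions in the same tRNA against each other. The ratio of Val-CAC to shared fragments was -3.41, -3.34 and -4.13 at 3 months and -3.15, -2.40 and -0.88 at 22 months. All 22 month libraries lay above all 3 month libraries, by 1.48 in the mean, and by 0.85 without replicate 3 at 22 months. The difference was 0.66 (exact permutation p = 0.9) without the most abundant ID of each group. Over IDs above 0 in all 6 libraries it was 0.79 (exact permutation p = 0.2). The ratio of Val-CAC to Val-TAC was 1.03, 0.16 and -0.23 at 3 months and 1.67, 1.43 and 4.64 at 22 months, also without overlap, by 2.26 in the mean and by 1.23 without that library. Both gave exact permutation p = 0.1, the smallest possible, and 0.3 after adjustment over the 6 pairs. The ratio of Val-AAC to Val-CAC differed by -0.63 between the ages (exact permutation p = 0.2) and that of Val-TAC to shared by -0.78 (p = 0.3), or by -0.38 without replicate 3 at 22 months. The ratios of Val-AAC to Val-TAC and to shared differed by 1.64 and 0.86 (exact permutation p = 0.4 and 0.5). Without the same library these last 2 differences were 0.38 and -0.0036.

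Fragment by fragment, valine tRNAs gave 4 that fell with age and 0 that rose. Of the 43 IDs, 35 had enough tags to be tested: 9 of Val-AAC, 5 of Val-CAC, 3 of Val-TAC and 18 shared. The 4 that fell were 3 shared IDs and 1 of Val-CAC (edgeR quasi-likelihood test, adjusted p = 0.0491 for each, over 439 IDs). Across all IDs tested 1.82% fell and 4.78% rose. At an unadjusted p under 0.05, 8 of the 35 were lower and 1 was higher, against 9.79% of all 439 lower and 15.7% higher. Of the alternative tools, DESeq2 called 7 valine IDs lower, where it called 8.66% of all IDs lower, and 1 higher, AS-tDR-001441, where it called 13.4% higher. Limma-voom called 5 lower, against 4.56% of all IDs, and 0 higher. None of the 4 passed with a replicate block, with library totals or the smallest listed count as the scaling, when IDs with few tags were kept, or without any one of replicates 1, 2 and 3 at 3 months or replicate 1 at 22 months. In each of these fits 0 of all IDs tested passed in either direction.

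The ages did not overlap for 17 of the 35 tested IDs, 16 lower and 1 higher at 22 months, where 39.4% of all 439 did not overlap, 88 lower and 85 higher. The median log2 difference was -0.46 over the 35 (-0.45 with IDs at 0 throughout one age set to their bound), against -0.16 over all 439. By group the median was 1.07 for Val-AAC, 1.61 for Val-CAC, -0.81 for Val-TAC (-0.42 with the ID at 0 set to its bound) and -0.49 for shared IDs. The median over all IDs was itself -0.35 with library totals as the only scaling.

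**Figure D2:**
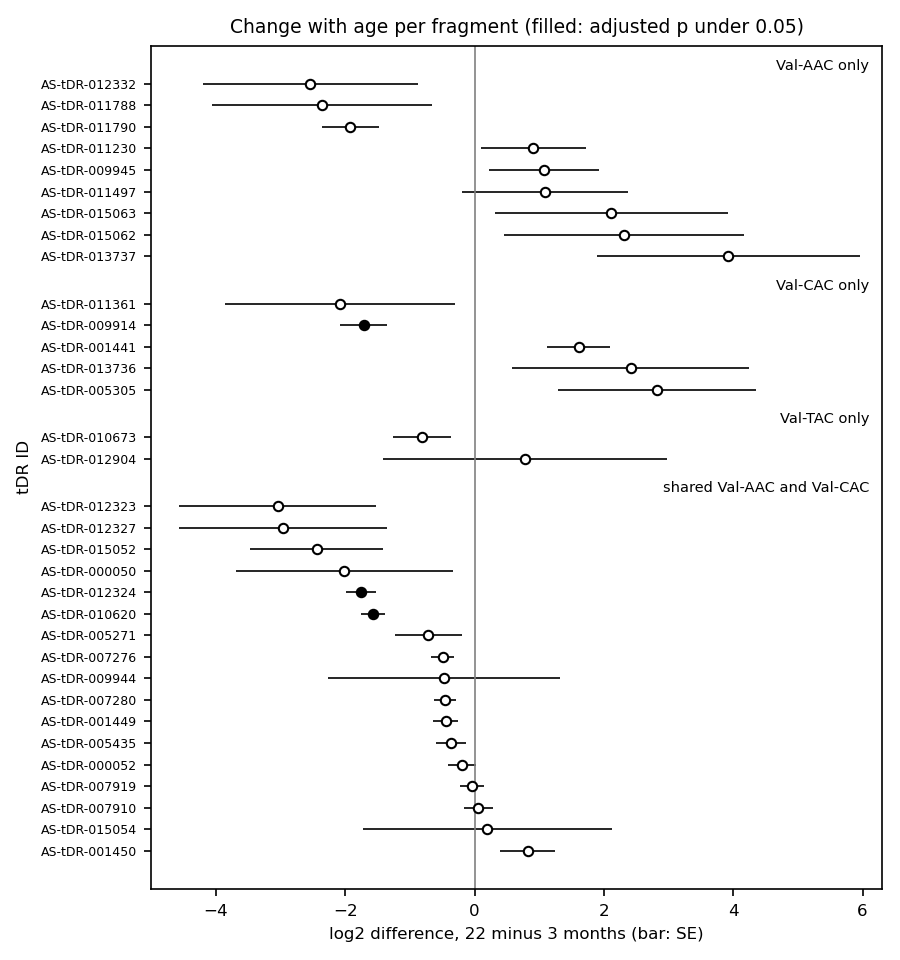
Log2 difference between 22 and 3 months with its SE (edgeR, on the log2 CPM scale) for 33 tested valine IDs by isoacceptor; filled points have an adjusted p under 0.05, and the 2 IDs listed at 0 throughout 22 months are not drawn. Shared IDs lie mostly below 0, 15 of 18 when the undrawn AS-tDR-015065 is counted, while Val-AAC and Val-CAC IDs fall on both sides.

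The most abundant shared fragments lie on the 5′ side of the anticodon and did not pass by edgeR. AS-tDR-007276, under Val-AAC-1 and Val-CAC-2 parents, was at 7156, 6597 and 6617 CPM at 3 months and at 4804, 5437 and 4201 CPM at 22 months. Its libraries did not overlap between ages, with a log2 difference of -0.50 (SE 0.18) that missed the threshold (edgeR, adjusted p = 0.139). DESeq2 called it lower (-0.49, adjusted p = 0.00436). AS-tDR-000052, which also names Val-AAC-5-1 and Val-CAC-1-1, was at 6967, 5461 and 5920 CPM and at 5839, 6075 and 4119 CPM. Here the ages overlapped, and the log2 difference was -0.19 (SE 0.22; adjusted p = 0.651), and 0.027 without replicate 3 at 22 months. AS-tDR-001449, with the parents of AS-tDR-007276, was at 4624, 3641 and 4978 CPM and at 2813, 3404 and 3476 CPM, a log2 difference of -0.45 (SE 0.20; adjusted p = 0.222). AS-tDR-001450, again with these parents, had the highest log2 difference of the shared IDs, 0.82 (SE 0.43; adjusted p = 0.279), or 0.38 without replicate 2 at 22 months. It was at 1824, 1478 and 1147 CPM at 3 months and at 2535, 3994 and 1327 CPM at 22 months, high in replicates 1 and 2 and within the 3 month range in replicate 3. Of the other abundant shared IDs, AS-tDR-007919 had a log2 difference of -0.046, AS-tDR-007280 of -0.46, AS-tDR-005435 of -0.36 and AS-tDR-007910 of 0.056, and none passed by edgeR. IDs with the same parents thus lay on either side of 0, and the difference between them was not tested.

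The 3 shared fragments that fell all come from the parents that carry T20C, used here as a name for this group of parents. The same parents also carry T27C and A43G, as do Val-CAC-1-1 and Val-AAC-4-1. Whether any of these bases had a part was not tested. AS-tDR-012324, under Val-AAC-2, Val-AAC-3 and Val-CAC-3, was at 2564, 1949 and 2069 CPM at 3 months and at 690, 746 and 506 CPM at 22 months. The highest 22 month library was far below the lowest 3 month library, and the log2 difference was -1.76 (SE 0.23; edgeR adjusted p = 0.0491). AS-tDR-010620, with the same parents, was at 1699, 1542 and 1598 CPM and at 531, 493 and 602 CPM, again without overlap. Its log2 difference was -1.57 with an SE of 0.18 (edgeR adjusted p = 0.0491). Both lie on the 5′ side, in the stretch that ends before position 34. AS-tDR-015065, on the 3′ side of Val-AAC-3-1 and Val-CAC-3-1, was at 535, 621 and 614 CPM at 3 months and at 0 in each 22 month library. This is at least 2.9-fold lower when set against the mean of the smallest listed levels at 22 months (edgeR adjusted p = 0.0491). The windows of AS-tDR-015065, drawn from its mature parents alone, all start after position 34 and so do not hold T20C itself.

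Of the 11 IDs with T20C parents only, a grouping made after the values were seen and given as a description, 10 were tested. Of all 439 IDs tested, 1.82% fell, 252 had a negative log2 difference and 88 were lower in every 22 month library than in any at 3 months. Among the 10 tested T20C IDs these numbers were 3, 9 and 7. The exception in sign, AS-tDR-015054, was at 205, 193 and 246 CPM at 3 months and at 0, 0 and 739 CPM at 22 months, so its value rests on replicate 3. AS-tDR-015053, the untested ID, was at 173, 0 and 0 CPM and at 0, 0 and 588 CPM, with the same library high. The 6 T20C IDs on the 5′ side summed to 6448, 5226 and 5285 CPM at 3 months and to 1712, 1468 and 2436 CPM at 22 months. The other 6 IDs on the 5′ side summed to 26423, 22467 and 23885 CPM and to 21125, 23721 and 17501 CPM, so their ages overlapped. The T20C parents thus held 19.6%, 18.9% and 18.1% of the 5′ side tags at 3 months and 7.50%, 5.83% and 12.2% at 22 months. On the 3′ side, the 5 T20C IDs summed to 2721, 2356 and 1926 CPM and to 1101, 505 and 315 CPM, and in the last 2 libraries these sums come from 2 IDs and 1 ID above 0.

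**Figure D3:**
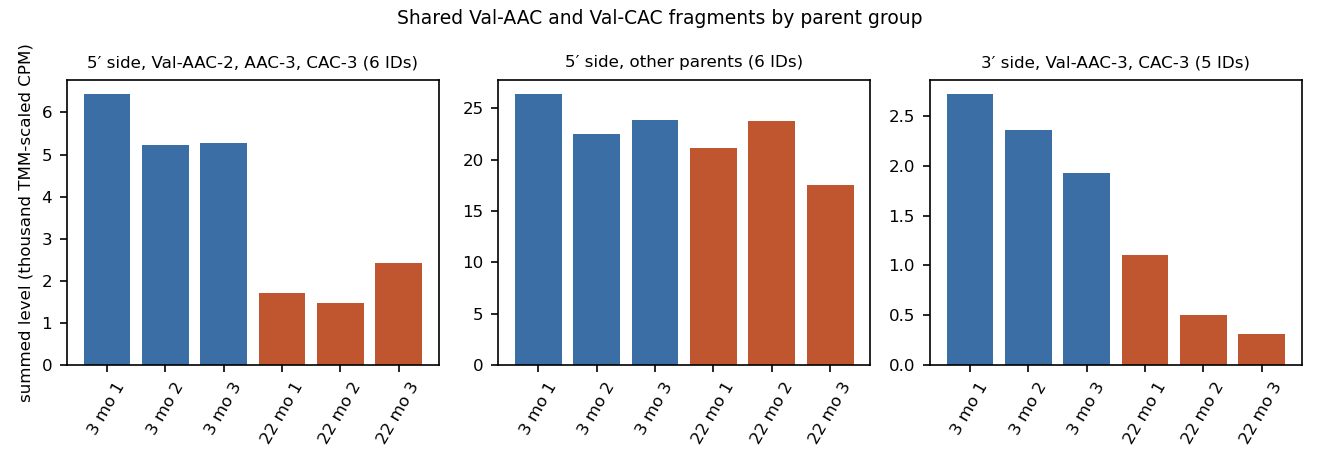
Summed level (TMM-scaled CPM, ticks in kCPM, bars from 0, scales differ) in each library for shared valine IDs whose windows lie on the 5′ side with Val-AAC-2, Val-AAC-3 and Val-CAC-3 parents, on the 5′ side with other parents, and on the 3′ side with Val-AAC-3 and Val-CAC-3 parents; blue is 3 months and orange 22 months. In both T20C panels all 22 month bars are lower than all 3 month bars (5′ side at most 2436 against at least 5226 CPM), and in the second panel the ages overlap.

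Among the fragments of Val-CAC only, 1 fell. AS-tDR-009914, of Val-CAC-1-1, was at 1069, 1392 and 717 CPM at 3 months and at 438, 265 and 260 CPM at 22 months, with no overlap. The log2 difference was -1.72 with an SE of 0.36 (edgeR adjusted p = 0.0491), and it did not pass by limma-voom or without replicate 2 or replicate 3 at 22 months. The 3 IDs of Val-CAC-2, whose windows all cover the first anticodon base, had positive log2 differences. AS-tDR-001441 was at 991, 728 and 512 CPM and at 2110, 3609 and 1108 CPM, the 1 tested valine ID that was higher in every 22 month library. The log2 difference, 1.61 with an SE of 0.49, missed the threshold (edgeR, adjusted p = 0.0896) and was 2.00 without replicate 3 at 22 months.

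The other two Val-CAC-2 fragments were highest in replicate 3 at 22 months. AS-tDR-005305 was at 519, 386 and 0 CPM at 3 months and at 186, 650 and 5692 CPM at 22 months, and AS-tDR-013736 at 613, 407 and 0 CPM and at 0, 650 and 4899 CPM. In both, that library was far above every other library and the ages overlapped. Their log2 differences were 2.82 (SE 1.53; edgeR adjusted p = 0.294) and 2.41 (SE 1.83; adjusted p = 0.478), and 0.53 and 0.017 without it. AS-tDR-011361, of Val-CAC-4-1 and Val-CAC-6-1, was at 362, 236 and 205 CPM and at 186, 0 and 0 CPM, close to the listing minimum, with the lowest log2 difference of the Val-CAC IDs, -2.08 (SE 1.78; adjusted p = 0.52). The 2 untested Val-CAC IDs each appeared in replicate 3 at 3 months alone.

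The IDs assigned to Val-AAC alone came almost all from 1 tRNA, Val-AAC-4-1, the parent of 8 of the 9 IDs. Other Val-AAC tRNAs are parents of shared IDs, which are not counted here. Those under Val-AAC-1 and Val-CAC-2 alone summed to a mean of 14782 CPM at 3 months and 12182 CPM at 22 months. The 8 IDs of Val-AAC-4-1 summed to 7203 and 11044 CPM. The log2 differences of these 8 were positive for 5 and negative for 3, and none passed by edgeR. AS-tDR-009945 was at 3146, 1521 and 389 CPM at 3 months and at 1433, 2478 and 6801 CPM at 22 months. AS-tDR-011230 was at 2406, 1349 and 328 CPM and at 1208, 1660 and 4844 CPM. In both, replicate 3 was the lowest library at 3 months and the highest at 22 months, and the ages overlapped. Their log2 differences were 1.08 (SE 0.86; edgeR adjusted p = 0.488) and 0.91 (SE 0.81; adjusted p = 0.537), and 0.26 and 0.12 without replicate 3 at 22 months. AS-tDR-011497, AS-tDR-015062 and AS-tDR-015063 were likewise highest in replicate 3 at 22 months, at 972, 5651 and 4160 CPM, and were at 0 in replicate 3 at 3 months.

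AS-tDR-011790, of the same Val-AAC-4-1, was instead at 1762, 2998 and 2130 CPM at 3 months and at 544, 950 and 315 CPM at 22 months. The ages did not overlap, and replicate 3 at 22 months was the lowest. The log2 difference, -1.92 with an SE of 0.44, missed the threshold (edgeR, adjusted p = 0.0566), although it passed by DESeq2, by limma-voom and with another scaling (RLE). AS-tDR-012332 went from 472, 514 and 430 CPM to 239, 0 and 0 CPM (log2 difference -2.54, SE 1.66; edgeR adjusted p = 0.392), and AS-tDR-011788 from 488, 300 and 389 CPM to 226, 0 and 0 CPM. These 3 and the 5 above share their parents exactly, so the parent lists do not say where in Val-AAC-4-1 either set lies. The remaining ID, AS-tDR-013737 of Val-AAC-1, had the highest log2 difference of all valine IDs, 3.92 (SE 2.04; adjusted p = 0.279), at 189, 0 and 0 CPM and 0, 457 and 2750 CPM. It was 1.88 without replicate 3 at 22 months.

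**Figure D4:**
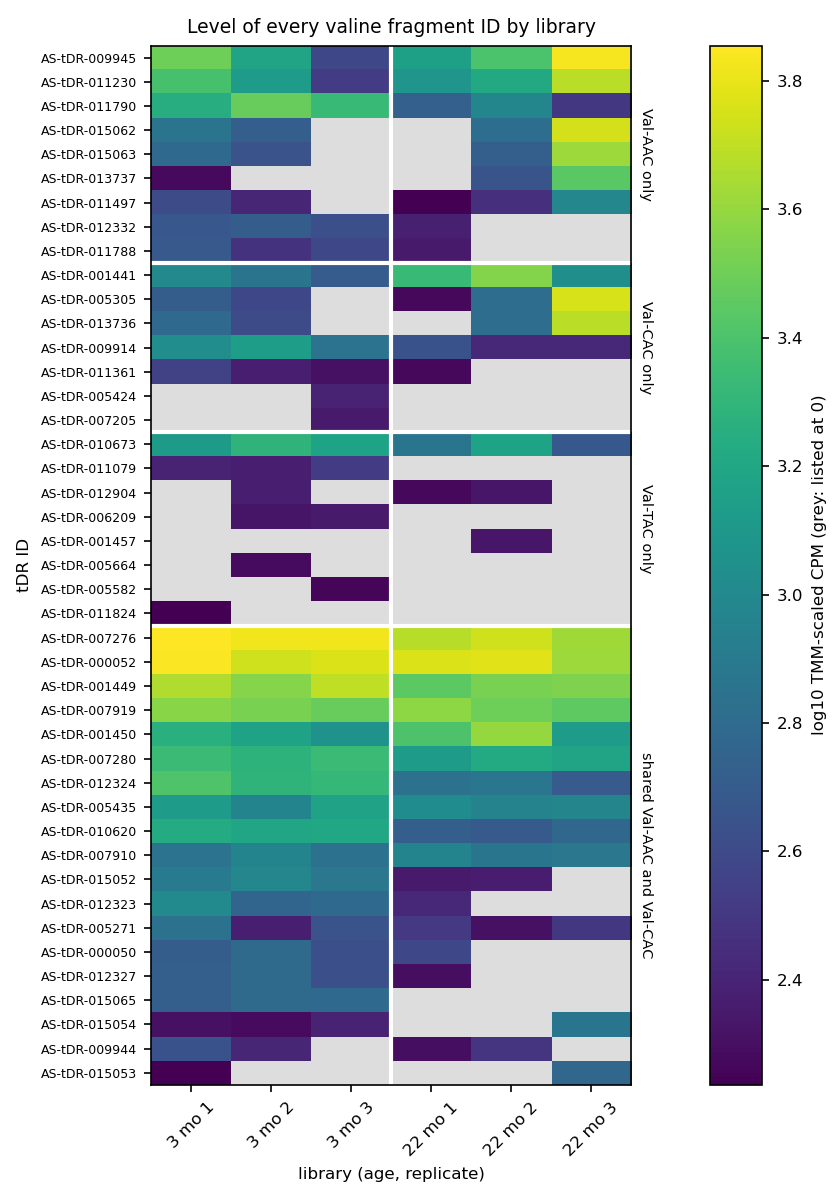
Level of all 43 valine IDs (rows, by isoacceptor and then by mean level) in the 6 libraries (columns, age in months and replicate), as log10 TMM-scaled CPM, with grey for values listed at 0. Replicate 3 at 22 months is bright for several Val-AAC and Val-CAC IDs (6801 CPM for AS-tDR-009945) and grey for many others, 18 of 43.

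Val-TAC fragments were few and low. AS-tDR-010673 carried most of the group, 78.1% of its tags on average over the libraries, and was at 1321, 1949 and 1495 CPM at 3 months and at 730, 1492 and 479 CPM at 22 months. Replicate 2 at 22 months lay within the 3 month range, and the log2 difference was -0.81 (SE 0.44; edgeR adjusted p = 0.294). It was -0.43 without replicate 3 and -1.39 without replicate 2 at 22 months. AS-tDR-011079 was at 252, 236 and 328 CPM at 3 months and at 0 in each 22 month library. This is at least 1.34-fold lower against the mean smallest listed level, and it did not pass by edgeR (adjusted p = 0.058) but did by DESeq2 (adjusted p = 4.08e-05) and limma-voom (adjusted p = 0.0419). AS-tDR-012904 was listed in 3 libraries of both ages at 186 to 236 CPM (log2 difference 0.78, SE 2.20; adjusted p = 0.851). The other 5 were above 0 in 1 or 2 libraries, at 173 to 225 CPM, and were not tested.

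The number of valine IDs listed at 0 was 7, 7 and 12 in replicates 1, 2 and 3 at 3 months and 15, 16 and 18 at 22 months, and 17 IDs were above 0 in all 6 libraries. Whether the listing minimum and depth had a part in these numbers was not tested.

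For comparison, the fragments of the other branched-chain amino acids and of alanine were counted in the same fit. Of 47 tested leucine IDs with a mature parent 13 rose and 0 fell (median log2 difference 0.86), of 6 isoleucine IDs 1 rose and 0 fell (-0.64), and of 19 alanine IDs 0 passed in either direction (-0.29). Among the 10 IDs listed under valine precursors only, all were tested, all had negative log2 differences (median -0.80) and 1 fell, AS-tDR-009918 of the Val-CAC-1-1 precursor (log2 difference -1.64, SE 0.27; edgeR adjusted p = 0.0491). AS-tDR-009914, described above, names this same precursor as well as mature Val-CAC-1-1, so these IDs share a parent and can overlap in sequence. These lists were not compared by a test.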

How the data were processed

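Total RNA of mouse brain was extracted with Trizol and sequenced as small RNA on an Illumina NextSeq, per the labels' protocols. FastQC, cutadapt, Novoalign and the build mm10 are named in the submitters' processing notes; no version, counting program or listing minimum is named in the sources used here. The deposited values are tag counts of each tDR, per the file headers. The table's title calls them normalized, but they are whole numbers with different library totals and were treated as raw counts. Its 3257 lines repeat the counts for each parent, so each of 591 IDs entered once.

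All 439 IDs kept by filterByExpr (minimum count 10) were fitted with edgeR 4.0.16 under R 4.3.3 (TMM, quasi-likelihood, no replicate term), with Benjamini-Hochberg adjustment over all of them and a threshold of 0.05. Sums were taken over IDs with the same set of parent anticodons, precursor-only IDs apart, and fitted with the totals and factors of the ID table, adjusted over 77 classes. Standard errors are the log2 difference over the square root of F. Shares and ratios were compared by exact permutation of 3 against 3 libraries (scipy 1.17.1). DESeq2 1.42.0 and limma 3.58.1 (voom) were alternatives, with scaling, filter, replicate block and libraries left out. The test was tried on simulated counts. Those had no listing minimum and no library that stood apart, unlike these data, so the trial gives no support to the calls.

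Named IDs were those past the threshold, the 3 most abundant and the highest and lowest log2 difference of each group, and those at 0 throughout one age; others named were chosen after their values were seen. The members and lists were chosen with earlier results of these data known. Sums and figures used pandas 2.3.3 and matplotlib 3.10.9 under Python 3.11.15.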

Additional observations from a re-analysis of the deposited data

How the results depend on the processing

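The number of valine IDs that fell, 4, was 0 with library totals as the only scaling, 0 with scaling to the smallest listed count and 0 with no filter on low counts. By DESeq2 it was 7, where 8.66% of all IDs were called lower. It ranged from 0 to 4 when single libraries were dropped. In each fit where it was 0, 0 of all IDs tested passed in either direction. The number of valine IDs that rose, 0, was 1 by DESeq2 and 1 among IDs above 0 in all 6 libraries, AS-tDR-001441 each time. Of all IDs tested, 13.4% were called higher by DESeq2, and 44 of 290 among IDs above 0 in all 6 libraries. All adjusted p of the 4 stood at 0.0491, just under the threshold. With a replicate block 0 valine IDs fell, and 0 of all IDs passed. The labels give both ages the numbers 1 to 3. Same-numbered libraries did not deviate together (correlations of -0.44, 0.02 and -0.32 over tested IDs). These values cannot decide whether the numbers pair the libraries. They are centred within 3 libraries of an age, and replicate 3 at 22 months stood apart. With one library left out, the log2 difference of the Val-AAC sum lay between -0.35 and 1.26, that of the Val-CAC sum between 0.57 and 1.68, the Val-AAC share difference between -0.279 and 0.617 points, and the ratio of Val-AAC to shared fragments between -0.0036 and 1.49; the lowest value of each came without replicate 3 at 22 months. The log2 difference of AS-tDR-000052 lay between -0.29 and 0.027, the latter also without that library. Over IDs above 0 in all 6 libraries the Val-TAC sum passed by edgeR (-0.80, adjusted p = 0.043), where 16 of 59 parent classes passed. Here the sum held 1 ID, AS-tDR-010673, which did not pass in the fit of single IDs (-0.74, edgeR adjusted p = 0.186). The shared sum passed by DESeq2 (-0.44, adjusted p = 0.0036), where 24 of 77 classes passed. Of 328 recomputed log2 differences of sums and named IDs, 279 kept their direction and side of the threshold, 35 lost a call, 12 gained one and 2 changed sign; shares and ratios could not reach the threshold under any setting. Sums over IDs with no precursor parent gave no value, since 1 of the 43 IDs qualifies. The smallest listed counts, near 200 CPM, are close to the levels of most Val-TAC IDs.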
